A study of Drosophila melanogaster with 6 samples.

Results

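Transcripts of 8 genes that make reactive oxygen species or keep them in check were followed in the midgut of Drosophila melanogaster females, where food is digested and absorbed. The genes were taken by symbol: the NADPH oxidases Duox and Nox, the superoxide dismutases Sod1 and Sod2, the catalases Cat and Irc, and the regulators Keap1 and cnc. All 8 were among the 17116 gene symbols counted, and 7 of them had enough counts to be tested. RNA was sequenced from mated females, 8 days old and taken 3 days after mating, and from virgin females, also 8 days old. Both groups carried the same w1118 genotype, a white-eyed laboratory strain listed as wild type, and each of the 3 mated and 3 virgin samples pooled 30 guts. The libraries held 16293718 to 25464204 gene counts in mated and 15902696 to 29021297 in virgin samples. The comparison asks how the intestine of a female differs after mating. Separate cultures are not named for the pools, and each p-value therefore rests on the spread among these samples alone, some of which may be technical.

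Reactive oxygen species serve the fly gut both as a weapon and as a signal. Duox, a membrane oxidase of enterocytes, releases oxidants into the gut lumen against ingested microbes, and Nox, a smaller oxidase of the same family, makes superoxide in response to some commensal bacteria. Superoxide dismutases turn superoxide into hydrogen peroxide, which catalase and peroxiredoxins remove, and the secreted catalase Irc is known for protecting flies during gut infection. CncC, the long product of cnc and the fly counterpart of Nrf2, switches on antioxidant and detoxification genes, while Keap1 holds it in check as an adaptor of a Cullin-3 ubiquitin ligase.

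Marker genes of the midgut were abundant, with summed levels of 6 enterocyte markers of 72720 to 90340 CPM in mated and 54900 to 70110 CPM in virgin libraries. CPM are gene counts divided by the library total in megacounts, with totals scaled by the trimmed mean of M values (TMM). Of the 6, Jon65Aiii, a gut protease, was the only 1 that passed, with 27745 ± 1810 CPM in mated and 13340 ± 1409 CPM in virgin libraries (edgeR adjusted p = 0.00168), while Myo31DF and Amy-p had lower means in mated libraries. Visceral muscle markers were higher in mated libraries, 4 of 4 by edgeR's test, with summed levels of 1656 to 2532 CPM in mated and 904 to 1142 CPM in virgin libraries. Of 4 Malpighian tubule markers, Uro was higher in mated libraries (26.8 ± 16.1 CPM in mated and 2.46 ± 1.23 CPM in virgin, edgeR adjusted p = 0.0363) and NKCC lower (31.1 ± 6.34 CPM in mated and 54.4 ± 5.92 CPM in virgin, edgeR adjusted p = 0.0209). Fat body markers summed to 73.7 to 178 CPM in mated and 66.7 to 232 CPM in virgin libraries, highest in virgin 2, with 0 of 3 tested passing and Fbp1 at 0 throughout. The part of these tissues in the results below was not tested. Hemocyte markers summed to at most 1.78 CPM in mated and 3.15 CPM in virgin libraries. Ovary markers summed to 0 to 1.53 CPM in mated libraries and to 0 to 30.8 CPM in virgin libraries, and the highest sum was that of virgin 2; of the 5 markers, the eggshell gene Cp36 had no count in any library. Of 8323 genes with at least 100 counts in all, 30 had at least 90% of them in virgin 2. Duox was 1 of these, as were Pxt, dhd and the oocyte genes osk, nos and yl. In mated 1, 5 genes had at least 90% of their counts, among them the male-specific RNA lncRNA:roX1. No other library held such a gene. Where leaving out either library changed a call or moved a value of the 8 genes by over 1.5 times, the value without it is given.

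Per length of annotated exon, the order of the 8 genes ran from Sod1 through Cat, Sod2, cnc, Keap1, Irc and Nox to Duox. Sod1 lay at 448 ± 61.5 CPM per kb over the 6 libraries (SD) and Cat at 196 ± 25.6 CPM per kb. Against all tested genes, these levels stood at percentiles 97.3 and 95.1. The mitochondrial dismutase Sod2 had 65.7 ± 11.1 CPM per kb and cnc 39.9 ± 3.17 CPM per kb, whereas Keap1 had 13.6 ± 4.01 CPM per kb. The secreted catalase and the oxidases were far lower than these intracellular enzymes and regulators. Irc had 1.35 ± 0.475 and Nox 0.466 ± 0.202 CPM per kb, percentiles 15.8 and 6.43, and Duox averaged 0.239 CPM per kb. The ranges over the 6 libraries did not overlap between neighbours from Sod1 down to Irc. Irc and Nox overlapped, with Irc above Nox in 5 of 6 libraries, and so did Nox and Duox, with Nox above Duox in 5 of 6. Lengths are of all annotated exons together, which for cnc, with 16 annotated transcripts, is more than any 1 transcript holds, so its level per length is a low estimate.

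**Figure D1:**
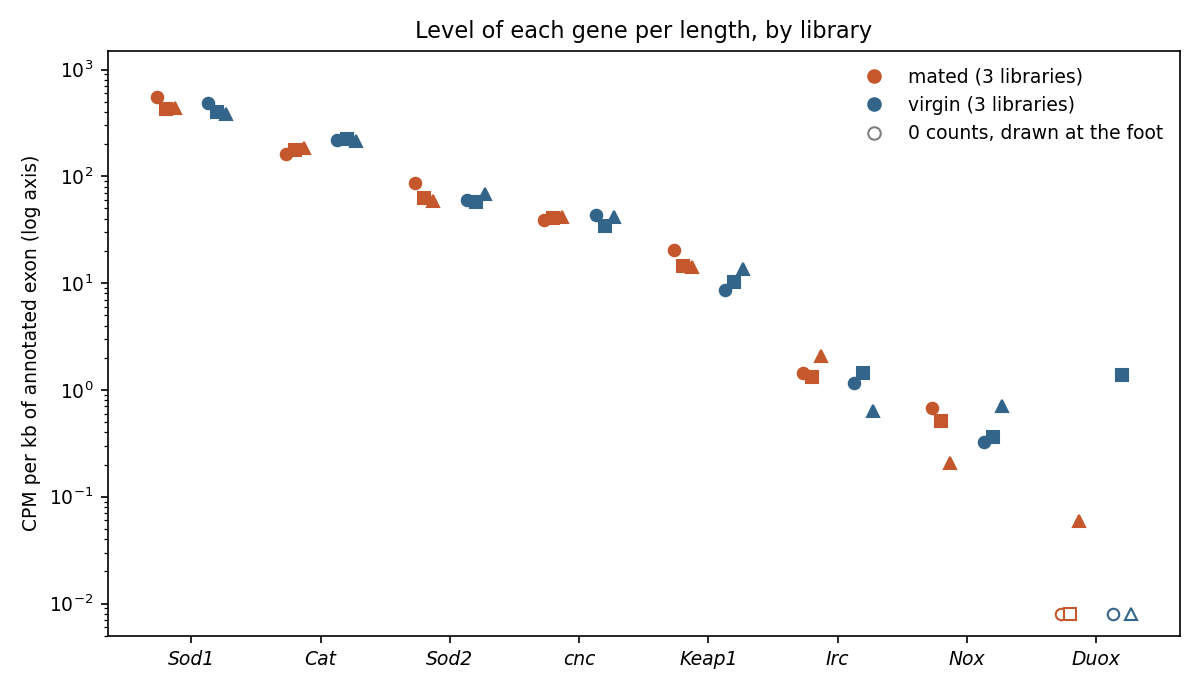
Level of each gene in CPM per kb of annotated exon (vertical log axis) in the 3 mated and 3 virgin libraries, 1 point per library; open points at the foot are libraries with 0 counts. Sod1 and Cat lie highest, Irc and Nox between 0.208 and 2.10 CPM per kb, and Duox has counts in mated 3 and virgin 2 only.

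In mated against virgin midguts, none of the 7 tested genes passed edgeR's quasi-likelihood test at an adjusted p below 0.05, which 4.1% of all 8607 tested genes passed. At an unadjusted p below 0.05 there were 2, Cat, with lower values in mated libraries, and Keap1, with higher ones, beside 17.2% of all tested genes. DESeq2 and limma-voom also passed none of the 7. The same 2 genes had groups that did not overlap, as did 23.9% of all tested genes. In whole midguts, fewer cells that express a gene and less RNA per cell cannot be told apart.

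**Figure D2:**
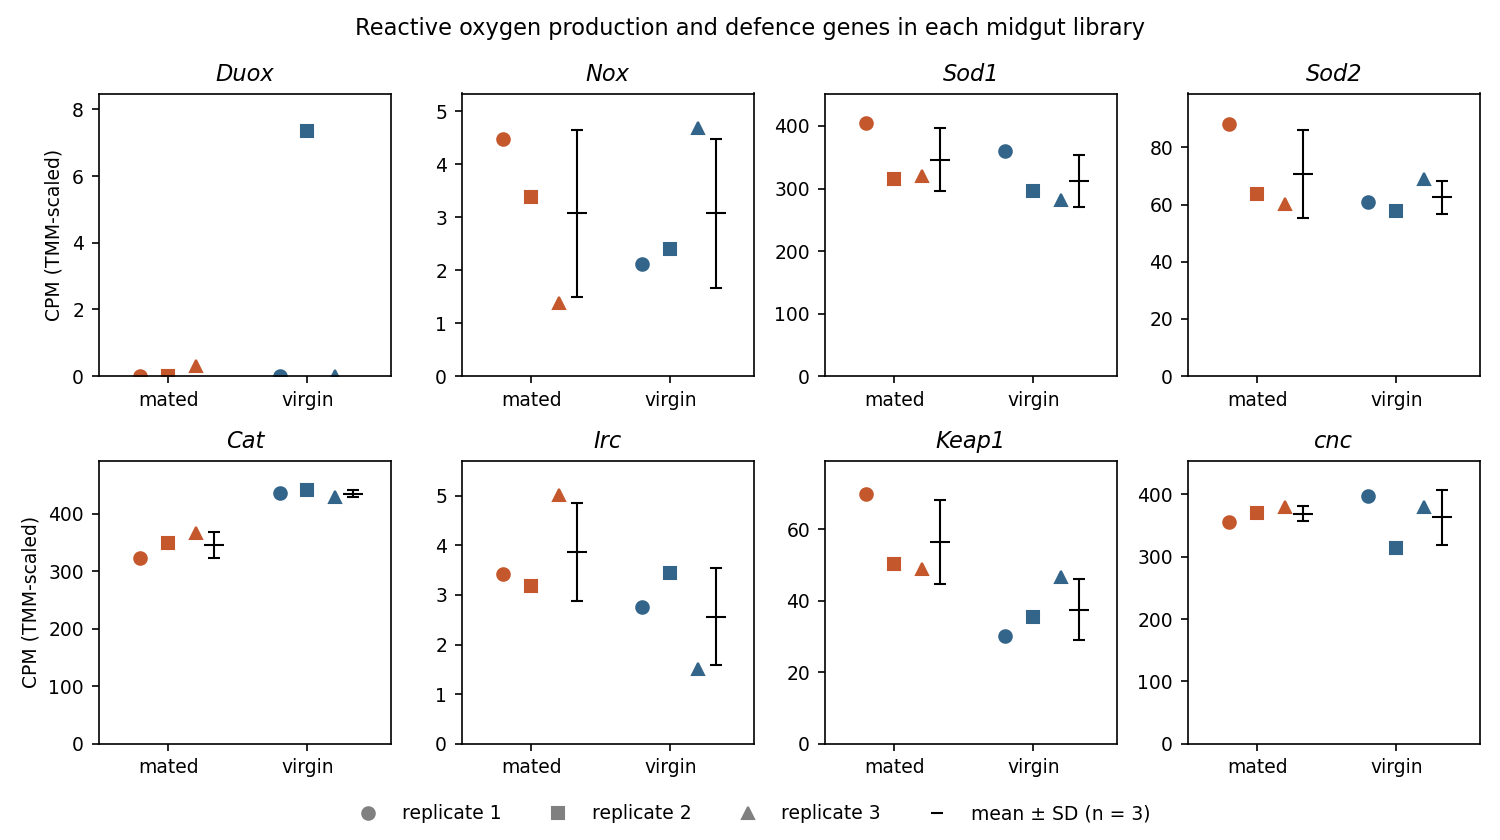
Level of each of the 8 genes in CPM (vertical axis, from 0) in the mated and virgin libraries, with the replicate shown by the symbol and the mean ± SD beside the points (none for Duox). The mated points lie below the virgin points for Cat and above them for Keap1; the other 6 genes overlap between groups.

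Duox (2L, 2815970 to 2830248, minus strand) was seen almost only in 1 library. Mated 1, mated 2 and mated 3 held 0, 0 and 6 Duox counts, and virgin 1, virgin 2 and virgin 3 held 0, 235 and 0. Virgin 2 alone thus carried 97.5% of the 241 counts (95% Clopper-Pearson interval 94.7 to 99.1%, counting error only), at 7.34 CPM, against 0.316 CPM in mated 3. A count of 0 allows up to 3 counts, which is 0.137 CPM in mated 1, 0.191 CPM in mated 2, 0.0996 CPM in virgin 1 and 0.167 CPM in virgin 3. The gene did not reach the count filter. With no filter its adjusted p in edgeR was 0.58, and without virgin 2 the comparison is one of 6 counts in the mated against 0 in the virgin libraries.

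Several transcripts of the ovary and egg shared the library in which Duox was high. Pxt, a peroxidase related to cyclooxygenases that acts in egg chambers, had 0, 3 and 0 counts in mated 1, 2 and 3 and 0, 520 and 0 in virgin 1, 2 and 3. The germline thioredoxin dhd had 11 counts in the mated libraries together and 1558 in the virgin ones, and the oocyte gene osk had 2 and 725. For dhd and osk all virgin counts were in virgin 2, which held 99.3% and 99.7% of all their counts, and for nos 98.0%. Other ovary markers did not share this pattern to the same degree: the germline helicase vas had 71.6% of its 95 counts in virgin 2, with 21 counts in mated libraries, and the eggshell gene Vm26Aa had its 2 counts in mated 2. In the mated samples all of these genes had few counts. The 6 of Duox lay in mated 3, and the 3 of Pxt, 11 of dhd, 2 of osk and 4 of nos lay in mated 2. Whether the Duox counts of virgin 2 came from the same tissue as these transcripts was not tested.

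**Figure D3:**
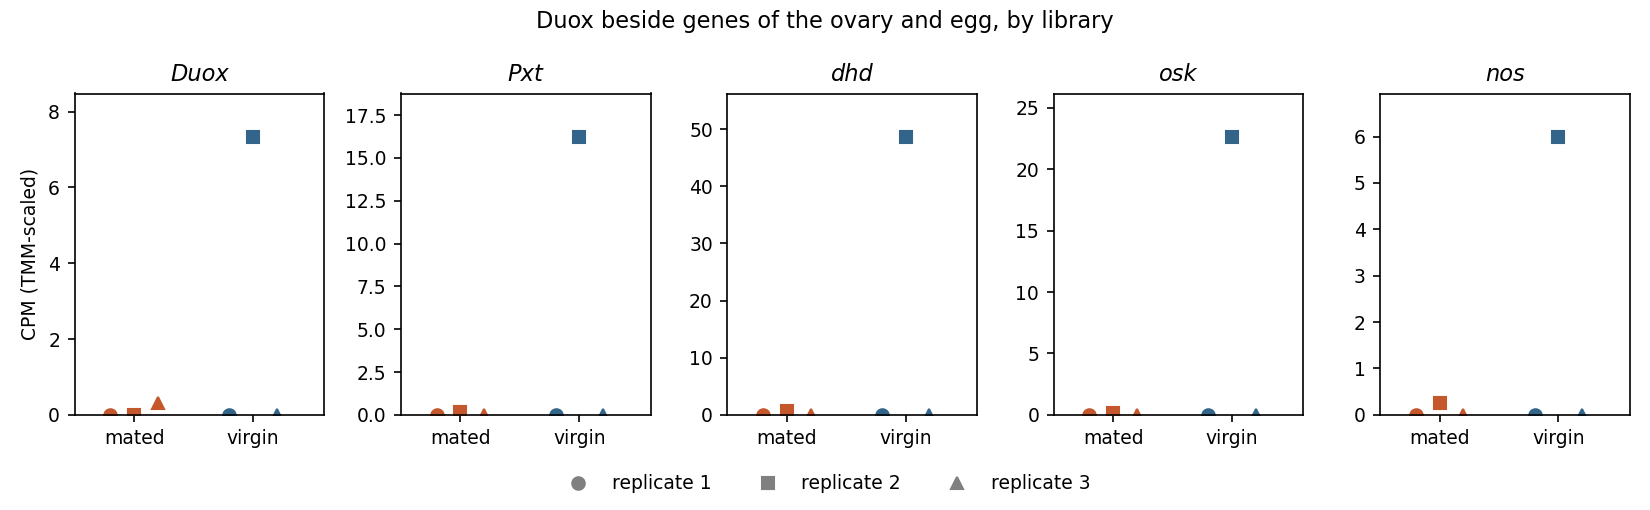
Levels of Duox, Pxt, dhd, osk and nos in CPM (vertical axes, from 0) in the mated and virgin libraries, 1 point per library with the replicate shown by the symbol. In each panel virgin replicate 2 stands alone, at 7.34 CPM for Duox, and the other 5 libraries lie at or near 0.

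Nox (2R, 16307269 to 16316485, plus strand) was low in every library. It had 98, 53 and 26 counts in mated 1, 2 and 3, or 4.48, 3.37 and 1.37 CPM, and 64, 77 and 84 counts in virgin 1, 2 and 3, or 2.12, 2.41 and 4.68 CPM. The groups overlapped across nearly their whole range. The means were 3.07 ± 1.57 CPM in mated and 3.07 ± 1.4 CPM in virgin libraries (SD, n = 3 each). The fold was 1.01 with a 95% interval from 0.458 to 2.22, so changes within these bounds, in either direction, are not excluded. The log2 fold change of 0.01 was -0.37 without mated 1, -0.12 without virgin 2 and 0.47 without virgin 3 (edgeR adjusted p = 0.881, 0.949 and 0.737). Nox shares 173 exon bases with CG8060 on the opposite strand, and 23.1% of the reads counted at Nox on either strand were of the opposite strand, against at most 6.18% at any other of the 8 genes.

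Both superoxide dismutases had slightly higher means in mated libraries without passing. Sod1 (3L, 11112281 to 11113740, minus strand), the cytosolic copper-zinc enzyme, had 404, 315 and 319 CPM in mated 1, 2 and 3, and 360.0, 296 and 281 CPM in virgin 1, 2 and 3. Replicate 1 was the highest of its group in both, and the groups overlapped. The means were 346 ± 50.1 CPM in mated and 313 ± 41.7 CPM in virgin libraries, a log2 fold change of 0.15 ± 0.15 (SE; edgeR adjusted p = 0.674). It was 0.023 without mated 1 and 0.30 without virgin 1 (edgeR adjusted p = 0.97 and 0.355). Sod2 (2R, 16772785 to 16773915, minus strand), the manganese enzyme of mitochondria, had 88.2, 63.7 and 60.2 CPM in mated libraries and 61.0, 57.9 and 69.0 CPM in virgin libraries. Its mean in mated libraries rested on mated 1, without which the log2 fold change was -0.0135 in place of 0.18 (edgeR adjusted p = 0.981 and 0.628). The 95% intervals of the fold ran from 0.88 to 1.4 for Sod1 and from 0.886 to 1.44 for Sod2. The ratio of Sod1 to Sod2 counts, which does not depend on how libraries are scaled, was 4.95 ± 0.363 in mated and 5.04 ± 0.915 in virgin libraries (SD; exact permutation p = 0.9, two-sided). The difference in its means, mated minus virgin, was -0.089. It was 0.093 without mated 1 and -0.045 without virgin 2.

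Cat (3L, 18822604 to 18828188, plus strand), the main intracellular catalase, had its lower values in the mated libraries. It had 322, 349 and 367 CPM in mated 1, 2 and 3, and 435, 441 and 429 CPM in virgin 1, 2 and 3. The virgin libraries lay close together and all above the highest mated library. The log2 fold change was -0.33 ± 0.12 (SE), a level 1.26-fold lower in mated libraries, with an unadjusted p of 0.0203 and an adjusted p of 0.188 in edgeR. Leaving out any 1 library kept the log2 fold change between -0.37 and -0.28, with adjusted p from 0.267 to 0.41. Scaled by library size alone, Cat passed, with a log2 fold change of -0.58 (edgeR adjusted p = 0.0143). That scaling also moved the median of all tested genes to -0.30, against -0.05 with TMM, and relative to that median Cat stood at -0.28 and -0.29 in these fits.

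Set against Sod1 in the same library, Cat also had lower values in mated midguts. The ratio of Cat to Sod1 counts was 0.798, 1.11 and 1.15 in mated 1, 2 and 3 and 1.21, 1.49 and 1.52 in virgin 1, 2 and 3. The groups did not overlap, with means of 1.02 ± 0.191 in mated and 1.41 ± 0.173 in virgin libraries (SD; two-sided exact permutation p = 0.1, the lowest p possible with 3 libraries a group). This ratio and 2 others were chosen after the values were seen, and the p adjusted over the 3 was 0.15. Neither gene passed alone, and an unequal change of the pair is not shown at this p.

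Irc (3R, 17002875 to 17007208, plus strand), the secreted catalase, was 1 of the lowest of the 8 genes. It had 75, 50 and 95 counts in mated 1, 2 and 3, or 3.42, 3.18 and 5.01 CPM, and 83, 110 and 27 counts in virgin 1, 2 and 3, or 2.76, 3.44 and 1.5 CPM. Virgin 2 lay above mated 1 and mated 2, so the groups overlapped. The log2 fold change of 0.59 ± 0.44 (SE) did not pass in edgeR (adjusted p = 0.548), and the 95% interval of the fold, 0.773 to 2.91, spans changes in both directions. With 1 library left out it ranged from 0.35, without virgin 3, to 0.85, without virgin 2, and was 0.36 without mated 3 (edgeR adjusted p = 0.724, 0.415 and 0.833). Cat and Irc lay on opposite sides of 0, and the difference between their changes was not tested.

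Keap1 (3R, 17073942 to 17079945, minus strand) had the smallest adjusted p of the 8 genes. It had 69.8, 50.1 and 48.9 CPM in mated 1, 2 and 3, and 30.0, 35.5 and 46.7 CPM in virgin 1, 2 and 3. All mated libraries lay above all virgin libraries, though mated 3 and virgin 3 were close. The means were 56.3 ± 11.7 CPM in mated and 37.4 ± 8.52 CPM in virgin libraries, a log2 fold change of 0.59 ± 0.19 (SE), or 1.51-fold with a 95% interval from 1.12 to 2.03. The unadjusted p was 0.011 and the adjusted p 0.139 in edgeR, 0.0603 in DESeq2. The value rested most on single libraries at both ends: it was 0.41 without mated 1, the library with the highest Keap1 level, and 0.81 without virgin 3 (edgeR adjusted p = 0.42 and 0.056).

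The transcript of its partner cnc (3R, 23185580 to 23226711, minus strand) was level across the groups. It had 356, 370.3 and 380.5 CPM in mated 1, 2 and 3, and 398, 314 and 379 CPM in virgin 1, 2 and 3. The mated libraries all lay inside the virgin range. The means were 369 ± 12.1 CPM in mated and 363 ± 44.2 CPM in virgin libraries, with a fold of 1.01 and a 95% interval from 0.828 to 1.25 (edgeR adjusted p = 0.952). Its log2 fold change of 0.022 was -0.066 without virgin 2, 0.048 without mated 1 and 0.12 without virgin 1 (edgeR adjusted p = 0.877, 0.9365 and 0.698). Counts per gene do not separate the long CncC product from the shorter products of cnc. There were 5.11, 7.39 and 7.78 cnc counts per Keap1 count in mated 1, 2 and 3, and 13.3, 8.83 and 8.12 in virgin 1, 2 and 3. The groups did not overlap in this ratio (exact permutation p = 0.1, two-sided, 0.15 adjusted over the 3 ratios). Without virgin 1 the difference in means was -1.72, against -3.31 with all libraries.

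**Figure D4:**
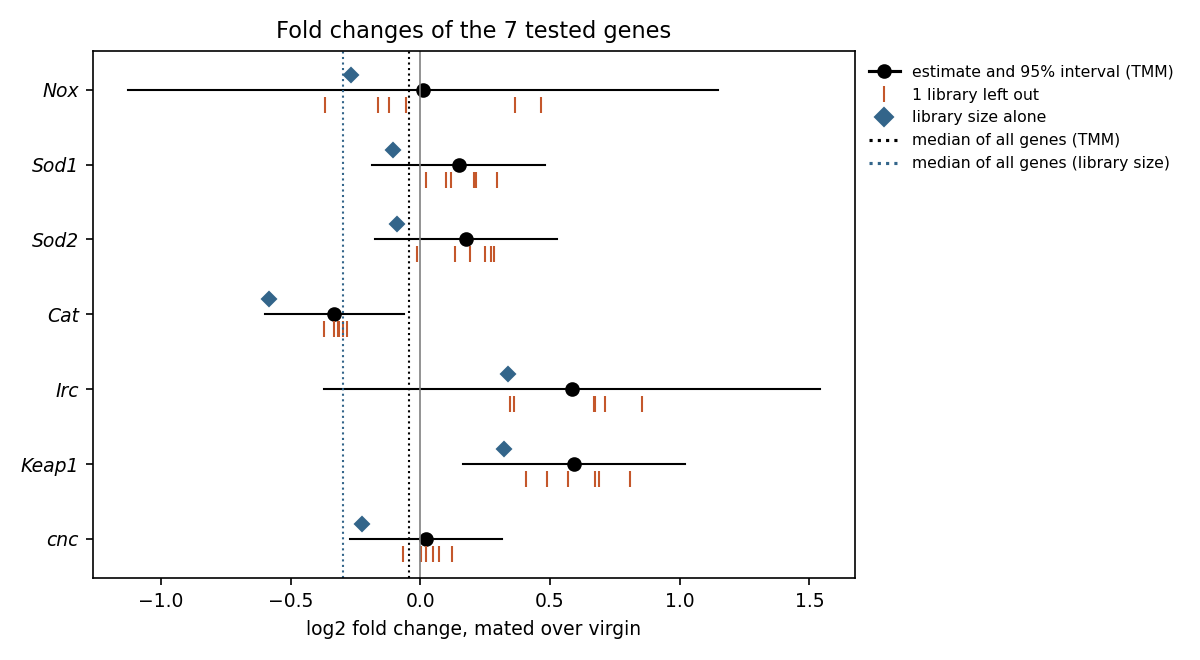
Log2 fold change of the 7 tested genes, mated over virgin, on the horizontal axis, with the 95% interval as a line, values with 1 library left out as ticks and values scaled by library size alone as diamonds; dotted lines are medians of all tested genes. The intervals of Cat and Keap1 leave out 0 before adjustment, and those of Nox and Irc are the widest.

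Other genes of these pathways were followed in 5 lists, 69 genes of which 57 were tested. Of the 57, 2 passed as higher and 2 as lower in mated libraries, with edgeR's background at 2.47% of all tested genes higher and 1.63% lower. The median log2 fold change of the 57 was 0.03, against -0.05 for all tested genes. At an unadjusted p below 0.05 there were 7 higher and 7 lower of the 57, beside 8.39% and 8.85% of all tested genes. The other 12 genes comprised 7 with no count in any library and 5 with too few counts, Pxt and dhd among these 5.

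Among 15 genes that control Duox and Nox, 1 rose, 0 fell and 14 did not pass, beside 2.47% rising and 1.63% falling among all tested genes. The list median was -0.10. An unadjusted p below 0.05 in edgeR was reached by 4, hh and Tak1 (higher) and Itp-r83A and lic (lower), beside 17.2% of all tested genes. The gene that passed was hh, which encodes the secreted signal Hedgehog, known in the fly gut for assembling the signalling endosomes through which bacterial uracil activates Duox. It had 41.9, 37.7 and 28.5 CPM in mated 1, 2 and 3, and 16.1, 10.9 and 15.8 CPM in virgin 1, 2 and 3. All mated libraries lay well above all virgin libraries, with a log2 fold change of 1.34 ± 0.20 (SE; edgeR adjusted p = 0.00396). Its call held whichever library was left out (highest adjusted p = 0.0216) and in all other settings tried. Cad99C, the cadherin of the same endosomes, was at 0.34 ± 0.5 CPM in mated and 0.577 ± 0.537 CPM in virgin libraries. The Duox maturation factor mol was also low, at 1.45 ± 0.458 CPM in mated and 2.53 ± 1.65 CPM in virgin libraries (edgeR adjusted p = 0.593). The kinase p38b, of the branch that raises Duox transcription, had 58.1 ± 6.30 CPM in mated and 62.3 ± 5.65 CPM in virgin libraries. Tak1, an upstream kinase, had 64.3 ± 2.49 CPM in mated and 50.9 ± 10.3 CPM in virgin libraries and did not pass (edgeR adjusted p = 0.289).

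None of the 10 tested genes among the other dismutases and peroxide-removing enzymes passed in edgeR, with 1 at an unadjusted p below 0.05 (17.2% over all tested genes) and a list median of 0.16. Jafrac1, the abundant cytosolic peroxiredoxin, had 746 ± 109 CPM in mated and 705 ± 37.3 CPM in virgin libraries. PHGPx, a glutathione peroxidase homologue, had 148 ± 14.7 CPM in mated and 110 ± 10.2 CPM in virgin libraries, with groups that did not overlap. Its log2 fold change was 0.44 ± 0.13 (SE; adjusted p = 0.107 in edgeR, 0.111 in limma-voom and 0.0361 in DESeq2). Prx5 had no count in any library; the Ensembl annotation gives CG7215 the same start, end and strand, and the part of this overlap in the count was not tested. Prx2540-1, Prx2540-2 and CG12896 are near-identical copies. Reads placed on more than 1 of them are left out of the counts, so the level of each is uncertain. Prx2540-2 had 63.6 ± 6.59 CPM in mated and 36.2 ± 19.5 CPM in virgin libraries and did not pass (log2 fold change 0.81, edgeR adjusted p = 0.352). Without virgin 1 it passed, at 1.37 (edgeR adjusted p = 0.00875).

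In flies, which lack glutathione reductase, the thioredoxin system also keeps glutathione reduced. None of the 9 tested genes of thioredoxin, glutathione and NADPH supply passed in edgeR, 2 had an unadjusted p below 0.05 (17.2% over all tested genes), and the list median was 0.13. Trxr-1, the thioredoxin reductase, had 414 ± 46.0 CPM in mated and 377 ± 29.2 CPM in virgin libraries. Eip71CD, a methionine sulfoxide reductase that repairs oxidised methionine, had 392, 491 and 419 CPM in mated 1, 2 and 3, and 123, 200.2 and 294 CPM in virgin 1, 2 and 3. The groups did not overlap and the virgin libraries were spread widely. The log2 fold change of 1.08 ± 0.29 (SE) missed the threshold in edgeR (adjusted p = 0.1), and passed in DESeq2 (0.000104), in limma-voom (adjusted p = 0.0465) and in edgeR without virgin 3 (adjusted p = 0.00784). The near-identical copies Gss1 and Gss2, which make glutathione, had no count in any library, and neither had Trxr-2. Reads placed at several positions or on several genes are left out of the counts. The lack of counts therefore does not show that these transcripts are absent, and its cause was not tested.

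Of 13 tested partners and targets of CncC, 1 rose, 1 fell and 11 did not pass, beside 2.47% rising and 1.63% falling among all tested genes. The list median was -0.04. An unadjusted p below 0.05 in edgeR was reached by 3, GstD2 (higher) and Cyp12d1-p and maf-S (lower), beside 17.2% of all tested genes. The cytochrome P450 Cyp12d1-p, known to be induced by foreign compounds, had 17.7, 20.8 and 15.3 CPM in mated 1, 2 and 3, and 47.9, 54.3 and 60.1 CPM in virgin 1, 2 and 3. It fell 3.02-fold in mated libraries (log2 fold change -1.59 ± 0.16, edgeR adjusted p = 0.000282) and passed in every setting tried. Its near-identical copy Cyp12d1-d had no count in any library. Reads placed on both copies are left out of the counts, so the level of each copy is uncertain. GstD2, a glutathione S-transferase, had 14.98, 4.90 and 2.00 CPM in mated 1, 2 and 3, and 0.53, 0.34 and 1.06 CPM in virgin 1, 2 and 3. It rose by 3.54 ± 0.78 on the log2 scale (edgeR adjusted p = 0.0403), with most of the signal in mated 1, without which the log2 fold change was 2.43 (adjusted p = 0.177). Of 17 other settings its call was lost in 10, among them limma-voom (adjusted p = 0.205). These 10 included each fit without 1 library except that without mated 3 (highest adjusted p = 0.238). That highest value was from the fit without virgin 2, where the log2 fold change was 3.25. Cyp6a2, another cytochrome P450, had 51.1, 9.10 and 12.0 CPM in mated 1, 2 and 3, and 25.5, 36.0 and 24.5 CPM in virgin 1, 2 and 3. Mated 1 was the highest of all libraries and the other mated libraries the lowest. Its log2 fold change was -0.25 (edgeR adjusted p = 0.908), and without mated 1 it passed as lower, at -1.44 (edgeR adjusted p = 0.012). Most abundant were ref(2)P, the fly p62 and an autophagy receptor, with 676 ± 34.1 CPM in mated and 619 ± 9.60 CPM in virgin libraries, and GstD1, widely used to report CncC activity, with 480.2 ± 88.1 CPM in mated and 410 ± 68.1 CPM in virgin libraries. Neither passed in edgeR (adjusted p = 0.653 and 0.547). The small Maf protein maf-S, the DNA-binding partner of CncC, had 40.1 ± 3.22 CPM in mated and 53.1 ± 6.25 CPM in virgin libraries, with groups that did not overlap (unadjusted p = 0.0139, edgeR adjusted p = 0.154).

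Of 10 genes of redox-responsive JNK and stress signalling, 1 fell, 0 rose and 9 did not pass, beside 1.63% falling and 2.47% rising among all tested genes. The list median was 0.05. An unadjusted p below 0.05 in edgeR was reached by 4, Ask1, foxo and Thor (lower) and puc (higher), beside 17.2% of all tested genes. Groups did not overlap for 2 genes higher and 3 lower in mated libraries, beside 11.6% and 12.3% of all tested genes. Over all the pathway lists together, they did not overlap for 8 higher and 6 lower of the 57 tested genes. Thor, an inhibitor of translation initiation and a target of the transcription factor FOXO, had 227, 231 and 294 CPM in mated 1, 2 and 3, and 444, 424 and 334 CPM in virgin 1, 2 and 3. The groups did not overlap, and the log2 fold change was -0.68 ± 0.16 (SE; edgeR adjusted p = 0.0356). Its call was lost in 4 of the 6 fits that left out 1 library, those without mated 1, mated 2, virgin 1 or virgin 2 (highest adjusted p = 0.166). The log2 fold change was -0.61 without mated 1 and -0.63 without virgin 2 (edgeR adjusted p = 0.108 and 0.1165). Xrp1, a stress-responsive transcription factor, was the most abundant of the list, with 1158 ± 37.0 CPM in mated and 1079 ± 43.1 CPM in virgin libraries (edgeR adjusted p = 0.731).

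**Figure D5:**
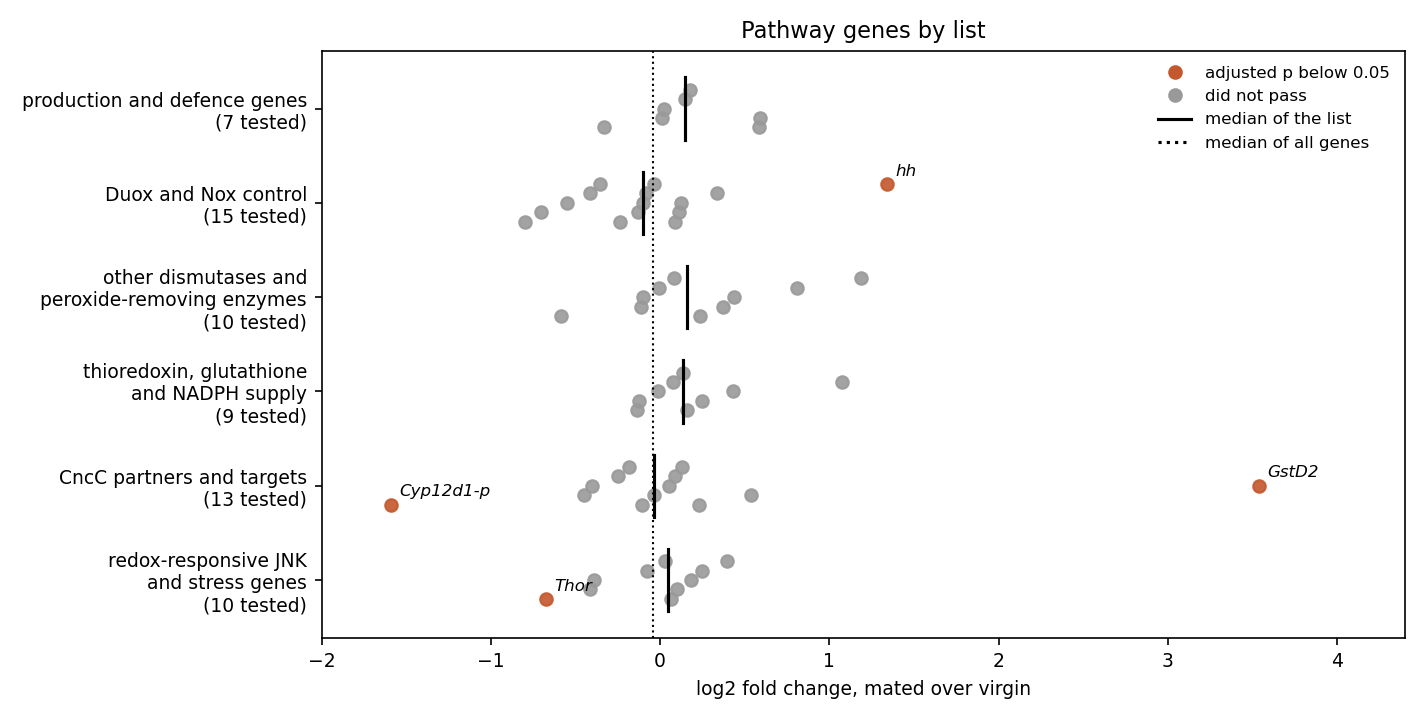
Log2 fold change, mated over virgin (horizontal axis), of each tested gene in the production and defence set and in 5 pathway lists, 1 point per gene, with the list median as a bar and the median of all tested genes as a dotted line. The 4 coloured and named genes, hh, GstD2, Cyp12d1-p and Thor, had an adjusted p below 0.05.

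Among the other tested genes (8606, or 8607 for Duox), those whose log2(CPM + 1) followed each of the 8 genes most closely over the 6 libraries were found by Pearson's r, as a description. Cat was followed by CG5107 (r = 0.998) and CG17906 (r = 0.996), and 80 genes had r above 0.95, the most for any of the 8. Duox, present mainly in virgin 2, was followed by Grip71 (r = 0.998) and asp (r = 0.989), genes of the mitotic spindle. Keap1 was followed by CG15556 and CG4825, Irc by omd and CG31663, and cnc by Met, a juvenile hormone receptor, and whe. Sod1 was followed by ND-B18 and Qsox1, Sod2 by ND-B22 and jbug, and Nox by Pect and Pfdn5. ND-B18 and ND-B22 encode subunits of respiratory complex I. With 6 libraries shared by all genes, such values arise for many genes, 9 to 80 above 0.95 for each of the 8.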

How the data were processed

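Per the labels' protocols, TRIzol was used for RNA extraction and a stranded TruSeq mRNA kit for the libraries. CASAVA 1.8.4, STAR and DESeq2 1.42.0 and the build dm6 are named in the submitters' processing notes, with no role or order; for the annotation the release was not given in the sources used here. Each deposited file holds raw counts by gene in 3 columns (unstranded, forward, reverse), in the layout of STAR. In that layout a read placed at several positions or on several genes is left out. The reverse column was used, since the forward one held 1.86 to 2.32% of both, and 4 summary rows stayed out.

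edgeR 4.0.16 in R 4.3.3 was run on all genes: filterByExpr left 8607, TMM factors were 0.86 to 0.965 in mated and 1.04 to 1.13 in virgin libraries, and glmQLFit (robust) was followed by glmQLFTest, two-sided, with Benjamini-Hochberg adjustment over all tested genes. Genes passed at an adjusted p below 0.05. Standard errors come from the F statistic. The pipeline was tested on simulated data. Positions and exon lengths are from Ensembl release 115 (BDGP6, the assembly of dm6). Alternatives included DESeq2 1.42.0, limma-voom (limma 3.58.1), other scalings and filters, a minimum fold, the unstranded column, a replicate block and each library left out. Named are the 8 genes, and of each list the passing genes and the 2 highest by CPM; other genes were named after their values were seen. The 8 genes and the lists were chosen with earlier results of these data known. Older names were resolved through RefSeq synonyms; 8 of 69 list genes needed this.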

Additional observations from a re-analysis of the deposited data

Results flagged for a closer look

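In the forward-strand column, which no comparison used and which holds reads of the strand opposite to the gene, 2 of the 8 genes had more signal in every mated than in every virgin library. For cnc the forward-strand level was 2.69 to 4.71 CPM in mated and 1.45 to 2.52 CPM in virgin libraries, or 0.702 to 1.26% and 0.381 to 0.63% of the counts of both strands. The annotation places 63 exon bases of cnc on the strand opposite to Irk1, which had 74 to 186 counts in mated and 45 to 140 counts in virgin libraries. An overlap of 63 exon bases on the opposite strand is also annotated between cnc and CG46310. For Sod1 the level was 0.2545 to 0.685 CPM in mated and 0 to 0.232 CPM in virgin libraries, resting on 4 to 15 counts and on 0 to 7 counts. Neither difference was tested. The share of all genes with such a gap in this column was not computed, so whether 2 of 8 is unusual is not known. In the reverse column, 11.6% of all tested genes had every mated library above every virgin one, which is no background for the forward column.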

How the results depend on the processing

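The number of the 8 genes passing was 0 in each alternative except scaling by library size alone, where it was 1, Cat, and 0 in every fit that left out 1 library. The number over all genes, 353 as reported with 60.3% higher, was 872 when scaled by library size alone (16.7% higher), 598 with DESeq2, 134 at an adjusted p below 0.01, 80 with a minimum fold of 1.5, and 169 to 308 when 1 library was left out. The number of pathway genes passing, 4 as reported, was 9 when scaled by library size alone, 2 at an adjusted p below 0.01, 2 with a minimum fold of 1.5, and 2 to 4 when 1 library was left out, with 2 without mated 2 and 2 without virgin 2. With library size alone the median of all tested genes was -0.30, against -0.05 with TMM, and this turned the sign of Nox (-0.27), Sod1 (-0.11), Sod2 (-0.089), cnc (-0.23), Jafrac1 (-0.16), Trxr-1 (-0.12), ref(2)P (-0.12), GstD1 (-0.013) and Xrp1 (-0.15), none of which passed in any setting. Nox also turned in the unstranded column (-0.028) and ranged from -0.37 to 0.47 when 1 library was left out; Sod1 ranged from 0.023 to 0.30, Irc from 0.35 to 0.85, Sod2 from -0.0135 to 0.28 and cnc from -0.066 to 0.12, and the difference in the Sod1 to Sod2 ratio from -0.568 to 0.344. Same-numbered mated and virgin libraries did not deviate together (correlations -0.16, -0.05 and -0.03 over 8607 genes). The deviations were centred within each group of 3, so these correlations cannot exclude a small effect shared by a pair. With the replicate block 290 genes, 0 of the 8 genes and 3 pathway genes passed in edgeR, and Nox stood at -0.014. In that fit Thor (edgeR adjusted p = 0.0755) and GstD2 (0.0937) lost their calls and Eip71CD gained one (0.0381). For changes that did not hold the cause was not tested. Nox and Irc rested on 26 to 110 counts per library, and Duox had 0 in 4 of 6.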
